A study of Triticum turgidum subsp. durum with 24 samples.

Results

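The study's text names 4 catalase probe sets (PSs) of the wheat array by identifier, of 61290 PSs on the array and 61179 that are not array controls. The first transcript of their cluster has the PSs Ta.1055.1.S1_at, called 1-S1_at from here on, and Ta.1055.1.S1_x_at, called 1-S1_x_at. The second has Ta.1055.2.S1_at, called 2-S1_at, and Ta.1055.2.S1_x_at, called 2-S1_x_at. They were chosen by that cluster number and by the study's annotation, which gives Arabidopsis catalase 2 (At4g35090) as the best match of each, and both rules found the same 4. That annotation covers 3155 PSs in the tables used here. The study also counts further catalase PSs that responded to stress with another expression pattern, which those tables do not name. All 4 passed the filter on low signals, for which a PS had to exceed the 60th percentile of the array on all 3 arrays of at least 1 group. No catalase signal lay below the 78.4th percentile of its array. The 4 PSs are read as repeated readings of closely related transcripts, not as 4 independent genes. PSs whose identifier ends in x_at hold probes that can also match other transcripts. The study listed these PSs because they responded to stress in the same arrays, so their changes against control are a description of a chosen set and not independent evidence.

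Flag leaf RNA of 2 durum wheat cultivars, Ofanto and Cappelli, was hybridised to 24 arrays, 3 for each of 8 groups. Control (Ctrl) plants had a soil water content of 28% and a day temperature of 19 °C, drought-stressed (DS) plants 12.5% and 19 °C, heat-stressed (HS) plants 28% and 40 °C, and plants under combined stress (CS) 12.5% and 40 °C. The methods place the plants at booting, while the sample labels give a 3 leaf stage. A signal is the authors' MAS5 value for 1 PS on 1 array, on a linear scale. In whole leaf RNA, fewer cells of a type and less RNA per cell cannot be told apart.

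Catalase is a haem enzyme of the peroxisome that splits hydrogen peroxide into water and oxygen. In green leaves much of that peroxide comes from glycolate oxidase during photorespiration, and in organs that break down fatty acids it comes from acyl-CoA oxidase, the first enzyme of peroxisomal β-oxidation. Plants carry several catalase genes that differ in the organ and the time of day at which they are transcribed, and in cereals the protein is sensitive to light and heat and has to be made anew.

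A few facts of the arrays bear on every value below. Array medians ranged from 65.4 to 90.5 signal units, so the catalase signals, between 542 and 17707, were far above the middle of every array. Over the kept PSs Cappelli HS replicate 3 stood apart from the rest of its group, with Pearson's r of 0.923 and 0.934 where replicates 1 and 2 gave 0.964. In Cappelli CS the pairs gave 0.947 for replicates 1 and 2, 0.901 for 1 and 3 and 0.941 for 2 and 3, which sets no single array apart, but replicate 3 had by far the lowest catalase signals. The main counts and changes that involve these 2 arrays are therefore also given without them. For Ofanto control, replicates 2 and 3 are described with the drought treatment although titled as control. A measure of RNA quality, the 3′ minus 5′ log2 difference averaged over 3 pairs of control PSs, ranged from 2.27 to 2.43 on the Ofanto control arrays and from 0.926 to 1.52 on all other Ofanto arrays. In Cappelli it ranged from 1.44 to 1.64 in control, 1.87 to 2.02 in DS, 1.24 to 1.47 in HS and 1.77 to 1.94 in CS. Its part in the results was not tested. Centring each array on its median moved the share of called PSs that were higher from 70.3% to 81.5% in Ofanto DS, from 58.2% to 73.1% in Ofanto HS, from 42.2% to 62.4% in Ofanto CS and from 66.7% to 81.9% in Cappelli DS. The same centring moved it from 38.9% to 54.3% for CS against DS and from 33.9% to 47.5% for CS against HS in Ofanto, the latter reaching 44.7% after quantile normalization.

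In control leaves both cultivars carried the catalase transcripts at closely similar signals. For 1-S1_x_at, with the brightest signals of the 4, the Ofanto control arrays gave 3782, 3975 and 3831 and the Cappelli control arrays 4089, 3722 and 4556. For 2-S1_at the values were 941, 796 and 1060 in Ofanto and 542, 1134 and 880 in Cappelli. The cultivars overlapped for both PSs. Cappelli control replicate 1 had the lowest value of 2-S1_at on any of the 24 arrays. 2-S1_x_at overlapped too, with 2229 to 2610 in Ofanto and 2136 to 2554 in Cappelli. 1-S1_at was the exception, lying between 1406 and 1662 in Ofanto and between 1780 and 1967 in Cappelli without overlap. None of the 4 was called different between the cultivars in control, where 15.5% of all PSs were called in either direction, a call being an adjusted p under 0.01 in limma with a change of at least 2-fold. The log2 difference of 1-S1_at, Ofanto minus Cappelli, was -0.32, with a 95% interval from -0.84 to 0.20 (adjusted p = 0.321). The other 3 differences lay between -0.09 and 0.18. Among the called PSs, 41.4% were higher in Ofanto, and 28.2% with median-centred arrays.

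**Figure D1:**
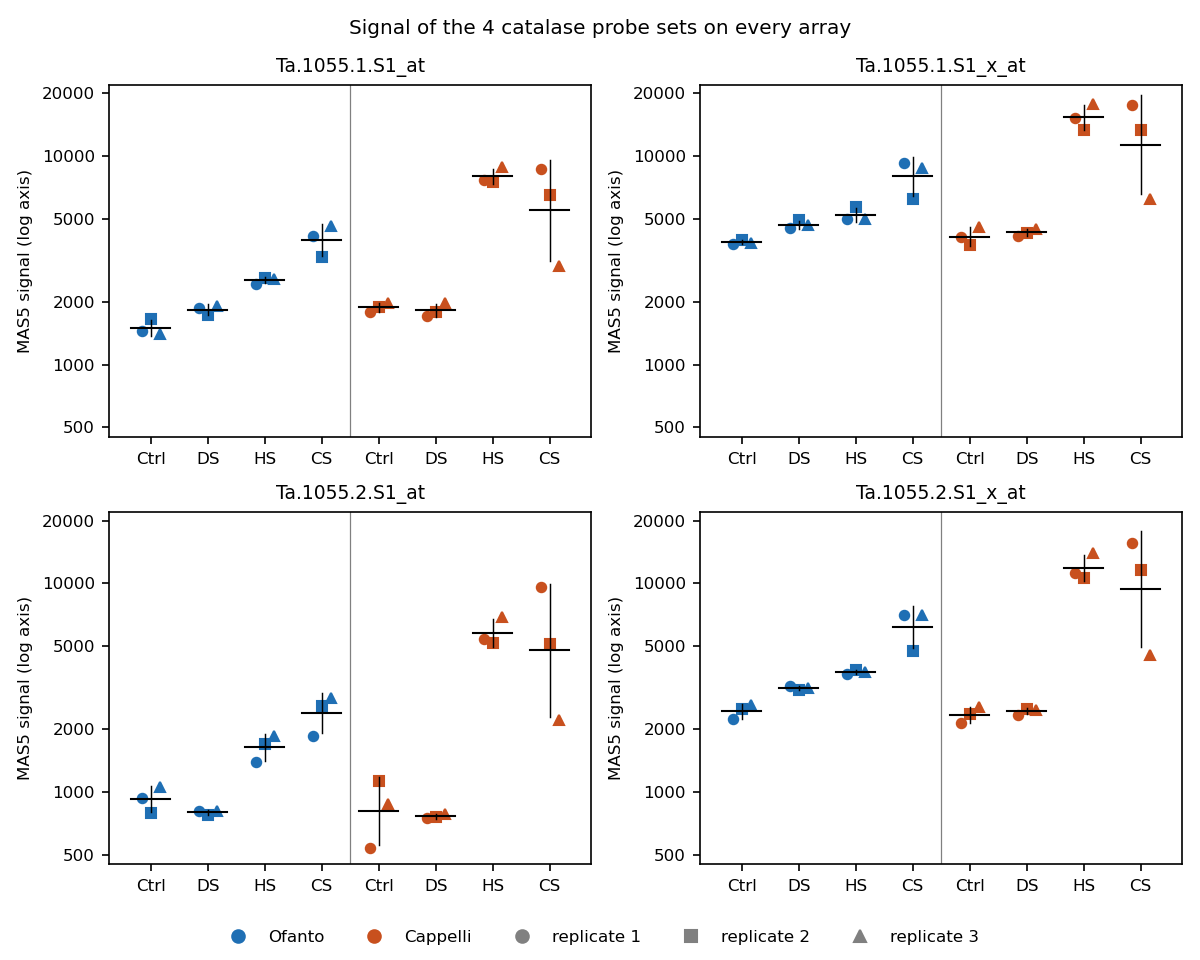
MAS5 signal (log axis) of each of the 4 catalase PSs on the 24 arrays, by group, Ofanto in blue and Cappelli in orange. Symbols mark the replicates, horizontal lines the mean and vertical lines 1 SD, both taken on the log2 scale. The Cappelli HS arrays lie above all control and DS arrays in every panel, and Cappelli CS replicate 3 lies well below replicates 1 and 2.

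Under drought alone none of the 4 PSs passed the test in either cultivar. In Cappelli the DS arrays gave 4132, 4294 and 4488 for 1-S1_x_at and 747, 759 and 787 for 2-S1_at, inside the range of their controls. The log2 changes in Cappelli DS lay between -0.09 and 0.07, in a comparison in which 0.891% of all PSs were called up and 0.445% down. The 95% interval for 1-S1_x_at, from -0.46 to 0.59, does not reach a 2-fold change in either direction. In Ofanto DS the signals of 2-S1_x_at were 3230, 3102 and 3159, all above the highest control of 2610, and its log2 change was 0.37 (SE 0.29, adjusted p = 0.439). 1-S1_at and 1-S1_x_at were also above every Ofanto control array, with log2 changes of 0.29 and 0.28, while 2-S1_at overlapped its controls at -0.21. Across all PSs 2.67% were called up and 1.13% down in Ofanto DS. The cultivars' DS levels did not differ past the threshold for any of the 4, with log2 differences of 0.01 to 0.37 and 10.3% of all PSs called in either direction, of which 49.8% were higher in Ofanto and 34.5% with median-centred arrays. Nor did the responses to DS, whose differences lay between -0.12 and 0.34 beside 4.09% of all PSs called.

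Heat alone raised the signals of the 4 catalase PSs in Cappelli. All 4 PSs were called up there, by 3.72-fold to 7.11-fold, in a comparison in which 11.2% of all PSs were called up and 13.6% down. The HS arrays of Cappelli gave 15139, 13352 and 17707 for 1-S1_x_at, and its log2 change was 1.90 (SE 0.25, adjusted p = 5.22e-06). For 1-S1_at they gave 7662, 7504 and 8808, a log2 change of 2.08 (SE 0.25, adjusted p = 1.37e-06). Every Cappelli HS array was above every control and DS array of either cultivar, and the 3 arrays lay close together. For 2-S1_x_at the arrays gave 11275, 10631 and 13984, a log2 change of 2.34 (SE 0.29, adjusted p = 2.10e-06). For 2-S1_at they gave 5394, 5198 and 6928, a log2 change of 2.83 (SE 0.36, 95% interval 2.08 to 3.58, adjusted p = 2.92e-06). Replicate 3 was the highest of the 3 arrays for each PS, and without it all 4 were still called, with log2 changes of 1.79 to 2.70.

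In Ofanto the same heat moved the signals in the same direction by less than 2-fold, and none of the 4 PSs was called, beside 10.4% of all PSs called up and 7.46% down. The HS arrays of Ofanto gave 4991, 5700 and 5010 for 1-S1_x_at, a log2 change of 0.44 (SE 0.25, adjusted p = 0.172). For 1-S1_at they gave 2434, 2590 and 2578, a log2 change of 0.75 with a 95% interval from 0.23 to 1.27 (adjusted p = 0.0191). For both PSs every HS array was above every control and DS array of Ofanto. For 2-S1_at the HS arrays gave 1391, 1698 and 1864, a log2 change of 0.82 (adjusted p = 0.0700). For 2-S1_x_at they gave 3664, 3834 and 3760, a log2 change of 0.62 (adjusted p = 0.0886). These 2 PSs did not overlap with Ofanto control or DS either. The SEs come from the spread over all 8 groups, to which Cappelli CS replicate 3 adds, and without that array the 4 adjusted p-values became 0.000152, 0.0221, 0.0126 and 0.00274 for 1-S1_at, 1-S1_x_at, 2-S1_at and 2-S1_x_at, with the same changes below 2-fold. The 3′ minus 5′ difference did not overlap between Ofanto control and HS, and its part in these changes was not tested.

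The difference between the cultivars under heat was tested in itself. In HS leaves all 4 PSs were lower in Ofanto than in Cappelli, by 2.93-fold to 3.53-fold, with no overlap between arrays. The log2 differences, Ofanto minus Cappelli, were -1.65 for 1-S1_at (SE 0.25, adjusted p = 3.05e-05) and -1.55 for 1-S1_x_at (adjusted p = 6.89e-05). They were -1.82 for 2-S1_at (SE 0.36, adjusted p = 0.000423) and -1.66 for 2-S1_x_at (adjusted p = 0.000129). Of all PSs, 9.24% were called lower in Ofanto in HS. The 3′ minus 5′ difference did not overlap here either, at 1.03 to 1.22 in Ofanto HS and 1.24 to 1.47 in Cappelli HS. Nor did it overlap between the control groups of the cultivars, and its part in these differences was not tested. The responses to HS, each taken against the cultivar's own control, also differed past the threshold for all 4 PSs, by -1.33, -1.46, -2.01 and -1.72 in the same order of PSs, with adjusted p-values of 0.00760, 0.00467, 0.00589 and 0.00385. For this contrast 5.33% of all PSs were called in that direction. Among its called PSs 61.1% were higher, and 71.3% with median-centred arrays. These calls depended on which arrays entered the fit. Without Cappelli CS replicate 3, which enters through the shared spread only, the differences were the same and the adjusted p-values lay between 1.64e-05 and 0.000410, and in a fit of the groups compared alone between 0.000208 and 0.00298. Without both Ofanto control arrays whose descriptions hold the drought text the differences in response were -1.28, -1.43, -2.03 and -1.59 and none passed, with adjusted p-values between 0.0366 and 0.0542. None passed either without Ofanto control replicate 3, without Cappelli control replicate 1 or without Cappelli HS replicate 3, while the differences kept their sign. Of the 24 fits with 1 array left out, the call held in 9 for 1-S1_at, 17 for 1-S1_x_at, 17 for 2-S1_at and 21 for 2-S1_x_at.

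**Figure D2:**
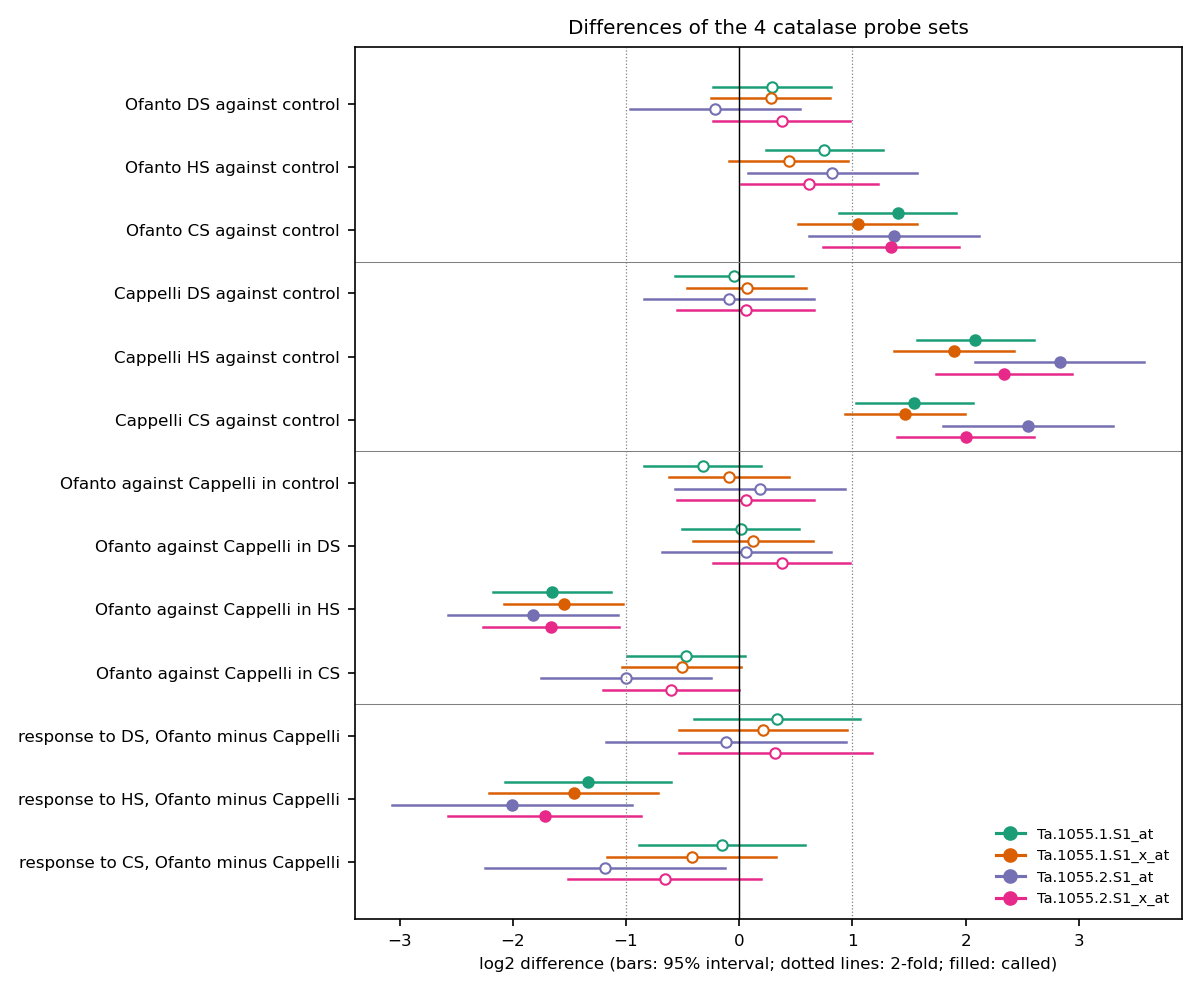
Log2 differences of the 4 catalase PSs for 13 comparisons, with their 95% intervals from limma. Filled points were called (adjusted p under 0.01 and at least 2-fold), open points were not, and dotted lines mark a 2-fold difference. All 4 points are filled for HS and CS against control in Cappelli and for CS against control in Ofanto. The same holds for the cultivars' difference in HS and for their difference in response to HS.

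Combined stress raised the signals of the 4 catalase PSs in both cultivars. In Ofanto all 4 PSs were called up, by 2.07-fold to 2.64-fold, beside 14.4% of all PSs called up and 19.7% down. The Ofanto CS arrays gave 9274, 6220 and 8792 for 1-S1_x_at, a log2 change of 1.05 (SE 0.25, adjusted p = 0.00149). For 1-S1_at they gave 4123, 3275 and 4613, a log2 change of 1.40 (adjusted p = 8.41e-05). Every one of these arrays was above every Ofanto HS array, and replicate 2 was the lowest for both. For 2-S1_x_at the arrays gave 7061, 4720 and 7072, a log2 change of 1.34 (adjusted p = 0.000557). For 2-S1_at they gave 1857, 2599 and 2820, a log2 change of 1.37 (adjusted p = 0.00291), and here replicate 1 was the lowest and overlapped with HS. The median change of all PSs in Ofanto CS was -0.17 on the log2 scale, and with median-centred arrays the 4 catalase changes were 1.41 to 1.76. Without both doubtful Ofanto control arrays 1-S1_at alone of the 4 was called (log2 change 1.45, adjusted p = 0.00436), the others giving adjusted p-values between 0.0106 and 0.0494.

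In Cappelli CS all 4 PSs were called up, by 2.76-fold to 5.86-fold, beside 9.89% of all PSs called up and 11.8% down, but the 3 arrays disagreed. For 1-S1_x_at replicates 1, 2 and 3 gave 17634, 13347 and 6205, a log2 change of 1.47 (SE 0.25, adjusted p = 0.000101). For 1-S1_at they gave 8638, 6482 and 2957, a log2 change of 1.55 (adjusted p = 4.82e-05). Replicates 1 and 2 lay among or near the HS arrays, and replicate 3 lay between the HS and the control arrays. For 2-S1_x_at the arrays gave 15604, 11619 and 4559, a log2 change of 2.0 (adjusted p = 1.52e-05). For 2-S1_at they gave 9597, 5102 and 2224, a log2 change of 2.55 (adjusted p = 1.15e-05). Even the lowest of these arrays was above every Cappelli control and DS array for each PS. The within-group SD of the catalase PSs in Cappelli CS was 0.78 to 1.06 on the log2 scale, where the median over all kept PSs was 0.322 in that group and 0.179 to 0.272 in the others. Without replicate 3 the log2 changes were 1.99 for 1-S1_at, 1.90 for 1-S1_x_at, 3.10 for 2-S1_at and 2.52 for 2-S1_x_at, all called. With a fit of Cappelli control and CS alone, whose spread is that of these 6 arrays, the adjusted p-values were 0.0273, 0.0311, 0.0175 and 0.0187 in the same order, and none was called.

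CS was set against each single stress to see what heat added to drought and drought to heat. Against DS, all 4 PSs were called up in Cappelli, by log2 changes of 1.40 to 2.64, beside 7.83% of all PSs called up. In Ofanto 2 of the 4 were called up against DS, beside 11.7% of all PSs. These were 1-S1_at at 1.11 (adjusted p = 0.000876) and 2-S1_at at 1.58 (adjusted p = 0.00101). 1-S1_x_at at 0.77 and 2-S1_x_at at 0.97 stayed under 2-fold. Against HS, none of the 4 was called in either cultivar. The Ofanto log2 changes from HS to CS were 0.54 to 0.72, with adjusted p-values between 0.0389 and 0.225 and 19.8% of all PSs called in either direction. The Cappelli changes were -0.54 to -0.28, with 0.919% of all PSs called, and without replicate 3 they were -0.09 to 0.27. Beyond the added DS and HS changes, CS gave a further 0.33 to 0.76 in Ofanto and -0.50 to -0.19 in Cappelli, and no PS was called in either, beside 18.3% and 0.559% of all PSs. Among the called PSs of the Cappelli departure 51.6% were higher, and 35.1% with median-centred arrays.

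The cultivars' CS levels did not differ past the threshold for any of the 4, with 15.7% of all PSs called in either direction. The log2 differences, Ofanto minus Cappelli, were -0.47, -0.51, -1.0 and -0.60 for 1-S1_at, 1-S1_x_at, 2-S1_at and 2-S1_x_at, and the interval for 2-S1_at ran from -1.75 to -0.25 (adjusted p = 0.0323). Without Cappelli CS replicate 3 they became -0.92, -0.94, -1.55 and -1.12, and the last 2 were called. The differences in response to CS were -0.15 to -1.18 with none called, beside 18.1% of all PSs, of which 46.2% were higher and 69.4% with median-centred arrays. Without that array 2-S1_at (-1.74) and 2-S1_x_at (-1.18) were called here as well.

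Ordered by mean signal, the 8 groups fell in nearly the same sequence for the 4 PSs. The 4 groups at the day temperature of 19 °C formed the low end, followed by Ofanto HS, Ofanto CS, Cappelli CS and Cappelli HS. The mean of 1-S1_x_at was 3863 ± 100 (SD, n = 3) in Ofanto control, 5234 ± 404 in Ofanto HS, 8095 ± 1642 in Ofanto CS, 12395 ± 5774 in Cappelli CS and 15399 ± 2189 in Cappelli HS. Ofanto CS overlapped with Cappelli CS for every PS through Cappelli CS replicate 3 alone, since replicates 1 and 2 were above every Ofanto CS array. The place of Cappelli CS below Cappelli HS rests on the same array for every PS but 1-S1_at. The mean of replicates 1 and 2 was 7560 against 7991 in HS for 1-S1_at, 15490.5 against 15399 for 1-S1_x_at, 7350 against 5840 for 2-S1_at and 13612 against 11963 for 2-S1_x_at, with overlapping arrays for every PS. Ofanto HS was clear of the low groups for every PS and clear of Ofanto CS for 3 of the 4. The order among the low groups differed from PS to PS, mostly within overlapping ranges.

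The 4 PSs moved together over the 24 arrays, with Pearson's r between 0.942 and 0.990 on the log2 scale, which is a description since they share a transcript cluster and the arrays share groups. They did not move by equal amounts. The ratio of 2-S1_x_at to 1-S1_x_at within an array was 0.522 to 0.637 in Cappelli control and 0.552 to 0.582 in Cappelli DS. It was 0.745 to 0.796 in Cappelli HS and 0.735 to 0.885 in Cappelli CS, with no overlap with control. In Ofanto the ratio was 0.589 to 0.681 in control, 0.673 to 0.750 in HS and 0.759 to 0.804 in CS. The control and CS arrays of Ofanto did not overlap, and HS overlapped with control. The same ratio for the pair 2-S1_at and 1-S1_at was 0.305 to 0.598 in Cappelli control and 0.693 to 0.787 in Cappelli HS, and in Ofanto its control, HS and CS ranges all overlapped. The ratios show unequal change of the PSs and not which of them held its level.

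A further pair of PSs carries a catalase name in the platform annotation, which names 1273 PSs and does not list the 4 catalase ones. Ta.442.1.S1_at, the brighter, and TaAffx.80209.1.S1_at, the dimmer, are both given there as CAT1, and they are described beside the 4 and were not counted with them. The brighter CAT1 PS was among the brightest 0.3% of PSs on every array, with signals from 26911 to 57757. Its Cappelli HS arrays gave 53052, 41899 and 26911 against 48058, 42852 and 40310 in control, so the ranges overlapped while replicate 3 was the lowest of the 24 arrays. It was called in no comparison against control, and its log2 changes lay between -0.19 in Ofanto HS (95% interval -0.55 to 0.17) and 0.22 in Cappelli CS (-0.14 to 0.58). Signals this bright can be compressed near the top of the scanner's range, which cannot be read from the deposited values. The dimmer CAT1 PS gave low signals, from 64.1 to 327, and was not called either, its intervals reaching beyond 2-fold in several comparisons.

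**Figure D3:**
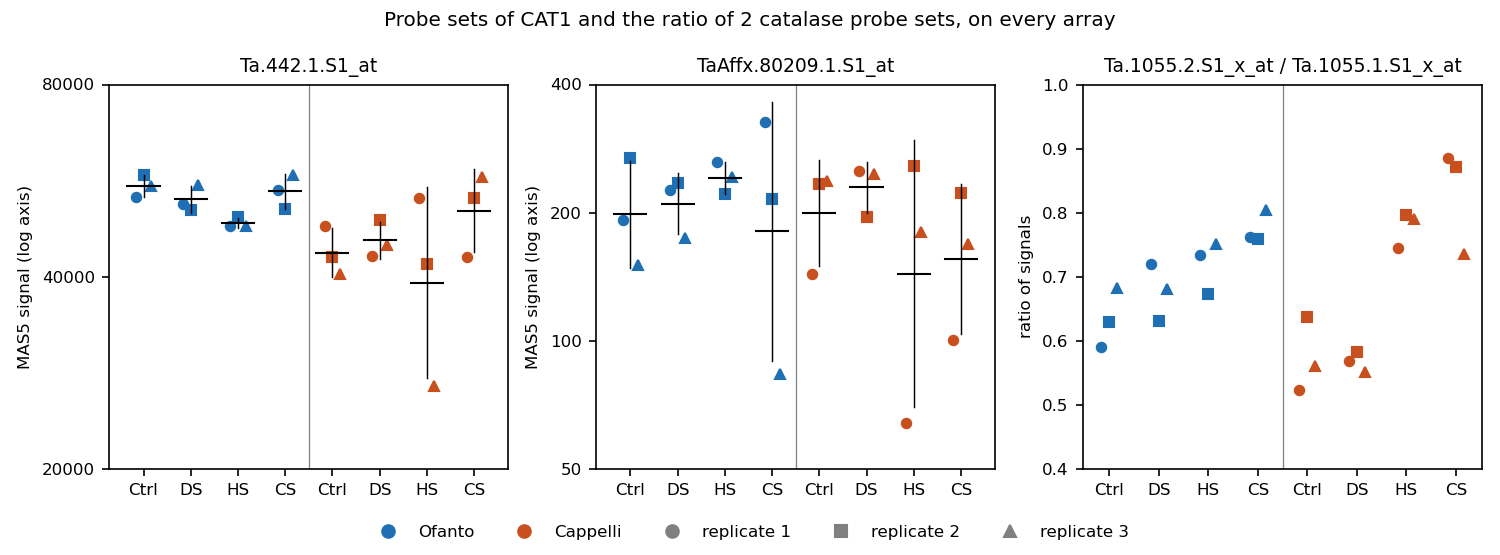
Left and middle, MAS5 signal (log axes of different ranges) of the brighter and the dimmer CAT1 PS on the 24 arrays, with mean and 1 SD on the log2 scale. Right, the ratio of 2-S1_x_at to 1-S1_x_at within each array, which lies between 0.522 and 0.637 in Cappelli control and between 0.745 and 0.796 in Cappelli HS.

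The enzymes that surround catalase in the peroxisome were read from lists of annotated PSs, taken from the study, which selected most of them for their response in these same arrays. Of the 7 β-oxidation PSs, 6 rose in Cappelli HS with a list median of 1.49 on the log2 scale, where the median of all PSs was -0.02 and 11.2% of all PSs were called up, and none was called in Ofanto HS (median 0.32, 10.4% of all PSs called up). The acyl-CoA oxidase ACX2, whose reaction releases hydrogen peroxide, gave 4318, 4161 and 5655 in Cappelli HS against 976, 992 and 1226 in control, a log2 change of 2.14 (adjusted p = 0.000130). In Ofanto HS its log2 change was -0.12, and the difference in response was -2.26 (adjusted p = 0.00410). ACX3 gave 0.59 in Cappelli HS and 0.89 in Ofanto HS, both under 2-fold. Under CS 3 of the 7 rose in each cultivar, beside 9.89% of all PSs in Cappelli and 14.4% in Ofanto, and in Cappelli 6 rose without replicate 3, beside 10.1% of all PSs. With all arrays they were ACX2, a multifunctional protein and a thiolase in Cappelli, and ACX3, AIM1 and a short-chain acyl-CoA oxidase in Ofanto. The study's text matches the multifunctional protein PS and the AIM1 PS to the same Arabidopsis gene, so these 2 need not be different enzymes.

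The glyoxylate cycle, which turns the acetyl-CoA made by β-oxidation into organic acids, was covered by 7 PSs, the acetate-activating enzyme included. In Cappelli HS 6 of the 7 rose, with a list median of 3.82. Isocitrate lyase gave 3994, 5702 and 14489 there, 21085, 16076 and 1481 in Cappelli CS and 45.6, 84.9 and 56.0 in Cappelli control. The A1_at PS of malate synthase gave 6040, 6854 and 12858 in Cappelli HS and at most 161 on any Ofanto array. Isocitrate lyase and this malate synthase PS were dim outside Cappelli HS and CS, so their fitted changes of 6.85 and 6.89 have no exact size. The share of all PSs called up in Cappelli HS was again 11.2%. In Ofanto HS 1 of the 7 rose, beside 10.4% of all PSs, namely aconitase (1.91), which was not called in Cappelli HS at 0.69. Its control arrays were already apart, at 217 to 337 in Ofanto and 1027 to 1588 in Cappelli. In HS its Ofanto arrays, at 931 to 1021, were still below the Cappelli arrays, at 1743 to 2875. Aconitase also rose in Ofanto DS (1.79), where the A1_x_at PS of malate synthase fell from between 261 and 333 in control to 33.6, 14.2 and 14.4, which are below the array medians and give the fall no exact size. In Ofanto DS 2.67% of all PSs were called up and 1.13% down. Under CS 5 of the 7 rose in Cappelli, or 6 without replicate 3, and 3 in Ofanto, beside 9.89%, 10.1% and 14.4% of all PSs.

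Other enzymes that remove peroxide or superoxide gave 10 PSs, of which 4 rose in Ofanto HS (median 0.98), 4 in Cappelli HS (0.77), 7 in Ofanto CS (1.49) and 3 in Cappelli CS (0.79), and none fell. The shares of all PSs called up were 10.4%, 11.2%, 14.4% and 9.89% in the same order. APX3, which in Arabidopsis is an ascorbate peroxidase of the peroxisomal membrane, gave 646, 514 and 1051 in Cappelli HS and 932, 1332 and 1017 in Ofanto CS, both called up. Its control arrays were at 9.5 to 63.9, below the array medians, so the rises have no exact size. A putative peroxidase PS was called up in Ofanto HS, at 406, 383 and 355 against 121.5, 21.8 and 4.60 in control, and gave -1.45 in Cappelli HS (adjusted p = 0.123). Its Cappelli arrays lay at 916 to 1156 in control and at 236 to 540 in HS. The cultivars were thus far apart in control, with Ofanto lower, and overlapped in HS. Its responses differed past the threshold (adjusted p = 0.00101), with no exact size, since 2 of the 3 Ofanto control arrays were below the array medians. Of 5 PSs of peroxisome biogenesis and import, 2 rose in Cappelli HS, both PEX11 PSs, whose Arabidopsis proteins act in peroxisome division, at 1.25 and 1.61, beside 11.2% of all PSs, and 1 of them without replicate 3, beside 10.5%. None was called in Ofanto HS. In Ofanto CS PEX14 rose by 1.06 and the transporter PXA1 fell by 1.91, beside 14.4% of all PSs called up and 19.7% down. In Cappelli CS a PEX11 PS rose by 1.06.

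The leaf label was checked against 7 green leaf PSs. RuBisCO activase gave 1506 to 1656 in Ofanto control and 1160 to 1407 in Cappelli control, and rose by 5.26 to 5.60 in HS and CS of both cultivars. It was also called up in Cappelli DS, by 1.71 with arrays at 2849 to 5200, beside 0.891% of all PSs called up, and was not called in Ofanto DS. Of the 7, 5 fell in Cappelli HS (median -2.33), 5 in Ofanto CS (-1.35) and 3 in Cappelli CS (-1.32), while none fell in Ofanto HS (-0.61). The shares of all PSs called down were 13.6%, 19.7%, 11.8% and 7.46% in the same order, and without replicate 3 of Cappelli CS 5 of the 7 fell there, beside 12.1% of all PSs. The groups in which all 4 catalase PSs were called up were thus the groups in which light-harvesting PSs were called down. That match holds for the calls only. In Ofanto HS RuBisCO activase was called up, and the other green leaf PSs each fell by less than 2-fold, with a list median of -0.61. The catalase changes there were 0.44 to 0.82, also under 2-fold. The part of leaf composition in the catalase changes was not tested. Averaged over each list, Cappelli CS replicate 3 lay 0.91 above its controls for catalase where replicates 1 and 2 lay 2.65 and 2.11 above, and 1.83 against 4.19 and 3.75 for the glyoxylate cycle. For β-oxidation it lay 0.19 above where the others lay 1.55 and 1.14 above. The peroxide and superoxide list did not set it apart, with 0.89 against 0.94 and 0.94, and the green leaf means were -1.02, 0.12 and 0.29 for replicates 1, 2 and 3, with replicate 1 apart from the others. These green leaf means include RuBisCO activase, whose rise lifts every HS and CS mean and those of Cappelli DS. A mean near 0 therefore does not show that the other green leaf PSs kept their level, the list median in Cappelli CS being -1.32. In Cappelli HS the green leaf mean was -1.92 against control on replicate 3, the array with the highest catalase signals, and -0.82 and -0.84 on replicates 1 and 2.

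**Figure D4:**
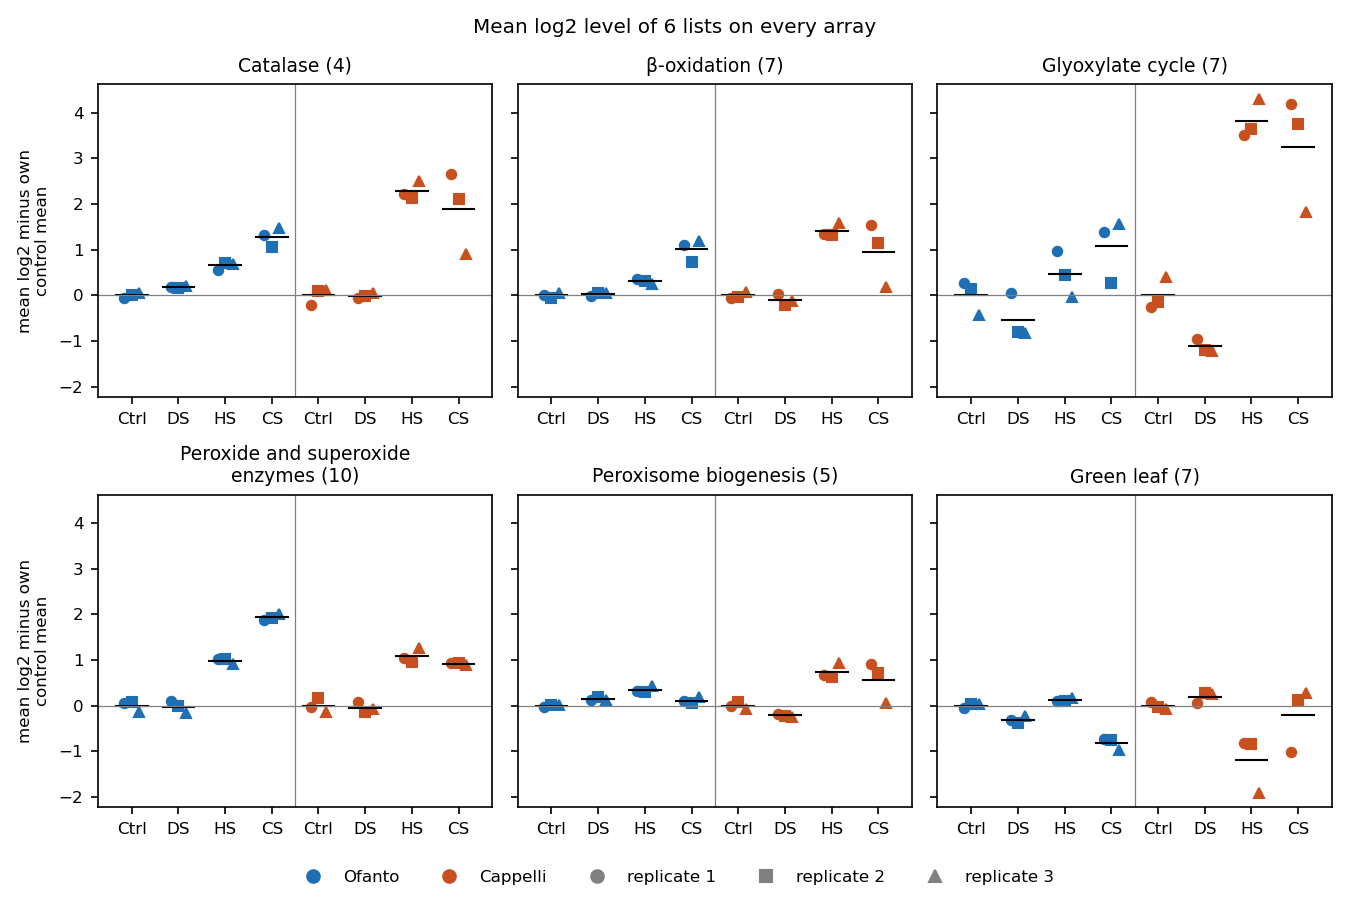
Mean log2 level of the catalase PSs and of 5 lists on each of the 24 arrays, minus the mean of the same cultivar's control arrays. Numbers in brackets count the PSs of a list, symbols mark replicates and lines the group mean. The green leaf means include RuBisCO activase, whose rise in HS, in CS and in Cappelli DS lifts them. Cappelli CS replicate 3 lies below replicates 1 and 2 for catalase (0.91 against 2.65 and 2.11), β-oxidation and the glyoxylate cycle, and beside them for the peroxide and superoxide enzymes.

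The PSs whose pattern was most like that of catalase were sought among 2496 kept PSs with an annotation, by Pearson's r with 1-S1_x_at over the 8 group means, taking 1 PS per annotation. The annotation comes from the study's tables of PSs called differentially expressed in these same arrays, some of them grouped for a rise in Cappelli HS and CS. The search was therefore made in a chosen set, and kept PSs without such an annotation were not searched. The 10 nearest had r between 0.982 and 0.996. Nearest was an oxidoreductase of the 2OG-Fe(II) oxygenase family (r = 0.996), with log2 changes of 3.05 in Cappelli HS, 0.90 in Ofanto HS and 1.77 in Ofanto CS. Next came AOX1A (r = 0.993), the alternative oxidase of the mitochondrial electron chain, which rose by 2.59 in Cappelli HS and 1.46 in Ofanto CS and gave 0.50 in Ofanto HS. A phosphofructokinase PS (r = 0.990) rose by 3.44 in Cappelli HS and gave 0.31 in Ofanto HS. Enzymes of branched-chain amino acid breakdown gave 2 of the 10, methylmalonate-semialdehyde dehydrogenase (r = 0.989) and the E2 subunit of the branched chain alpha-keto acid dehydrogenase (r = 0.985). The other 5 were PSs of a helicase domain protein, the unnamed expressed protein At5g35320, the condensin SMC2, a palmitoyl protein thioesterase and a Rieske domain protein. The most opposite patterns were those of beta-amylase BMY1 (r = -0.985), the auxin-responsive protein IAA16 (r = -0.977) and a transporter of the POT family (r = -0.976), and these changed by -3.70, -3.48 and -5.61 in Cappelli HS. With 8 points that share heat and cultivar, such values are easily reached and were given no test. Ranked over the 24 arrays, 5 of the same 10 were again among the nearest 10, and by Spearman's rho over the group means 4 of the 10. The count for rho depends on how ties are ordered, here by identifier, since 28 PSs had a rho at least that of the 10th.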

How the data were processed

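The deposited values are intensity values, MAS5 signals on a linear scale that the authors scaled array by array, per the submitters' processing notes, with no version given in the sources used here. The study's methods describe RMA values and MAS5 detection calls, which were not used here, and low signals in particular differ between the methods. Labels and methods also name different RNA extractions and labelling protocols. All 24 columns were used, the 111 control PSs were left out of tests, and no 2 columns were copies (smallest mean absolute log2 difference 0.330).

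Values were taken to log2 with no offset. The filter of the report, which stands in for the study's present calls, kept 28072 PSs (45.9%). All 24 arrays entered 1 model of 8 group means in limma 3.58.1 under R 4.3.3 (lmFit, eBayes, 16 residual and 1.97 prior degrees of freedom), with Benjamini-Hochberg adjustment over the kept PSs in each of 19 contrasts, and a call at an adjusted p under 0.01 and at least 2-fold, the study's thresholds. Intervals are 95% intervals of the moderated fit. The number of arrays limits the precision. The methods call the 3 arrays of a group biological triplicates, and how many plants or pots made an RNA sample was not found in the sources used here. The script was tested on simulated data.

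A randomized block design with 3 replications stands in the methods, but no label ties a replicate number to a block. Deviations of same-numbered arrays from their group means had correlations between -0.246 and 0.0733 over 84 pairs, so the numbers were not taken to pair arrays.

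Gene names are the study's best Arabidopsis matches, which cover 3155 PSs in the tables used here. The members and lists were chosen with earlier results of these data known. Named PSs are the 4 catalase PSs, in each list the PS with the highest and that with the lowest change in Cappelli HS and those the study names, and the 10 most alike and 3 most opposite patterns. The CAT1 PSs and those named to explain a count were added to these. Seed endosperm markers had been planned as a second cell type list, but the platform annotation used here holds symbols without titles and named none. The study text speaks of further catalase PSs that responded to stress with another expression pattern. The tables used here do not name them, so they could not be picked out. RNA quality was read from the 3 of 7 control pairs with both ends above the 60th percentile on at least 20 arrays, a rule chosen after seeing the data. Alternatives were the methods' t-test, a fit of the compared groups alone, a replicate block, an offset of 50, median centring, quantile normalization, no filter or a 70th percentile filter, a trended robust prior, a threshold of 0.05 with no minimum fold, each array left out and both doubtful Ofanto control arrays left out.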

Additional observations from a re-analysis of the deposited data

Results flagged for a closer look

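The responses of the cultivars to HS differed by the test of the difference itself for each of the 4 catalase PSs. The log2 difference in response, Ofanto minus Cappelli, was -1.33 for 1-S1_at, -1.46 for 1-S1_x_at, -2.01 for 2-S1_at and -1.72 for 2-S1_x_at. Every Cappelli HS array was higher than every Ofanto HS array for each PS, while the control arrays of the cultivars overlapped for 3 of the 4. The PSs share a transcript cluster, so these are not 4 separate findings, and the difference was among the results that changed with the processing.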

How the results depend on the processing

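No called log2 value of the 4 catalase PSs changed sign under the alternatives run. Over all 19 comparisons 25 of 2640 values did, in 7 comparisons, none of them called in either form and none beyond 0.37 in size under the alternative. They include 3 of the 4 PSs for Cappelli CS against HS without Cappelli CS replicate 3, at 0.00, 0.27 and 0.18, and 1-S1_at for the response to CS with median-centred arrays, at 0.13. The number called in Cappelli HS against control was 4 under each alternative, except for 3 with the methods' t-test. Other counts depended on the processing. With the methods' t-test the number called was 0 for Cappelli CS and Ofanto CS against control, for CS against DS in both cultivars and for the cultivars' difference in HS. That test called few PSs at all, 0.549% for Cappelli CS and 11.1% for Ofanto CS against control, 0.0214% and 9.08% for CS against DS in Cappelli and Ofanto, 1.38% for the cultivars' difference in HS and 3.99% for Cappelli HS. With only the groups compared it was 0 for Cappelli CS against control and against DS. For the difference in response to HS it was 2 with a replicate block, the pairing of same-numbered arrays, 1 with median-centred arrays and 0 with no filter or without both doubtful Ofanto control arrays. The replicate block changed no other count of called catalase PSs, and 9 of 24 arrays correlated best with their own number. For Ofanto CS against control it was 1 without those arrays and 3 with quantile normalization, where 1-S1_x_at gave 0.92. For Ofanto CS against DS it was 4 with median-centred arrays and 1 with quantile normalization. With a threshold of 0.05 and no minimum fold it was 4 for Ofanto CS against DS, 2 for Ofanto CS against HS and 1 each for Ofanto HS and for the cultivars' difference in CS. Leaving out 1 array at a time, it ranged from 0 to 4 for the difference in response to HS, from 2 to 4 for Ofanto CS against control, the 2 without Ofanto CS replicate 3, from 2 to 3 for Ofanto CS against DS and, through Cappelli CS replicate 3, from 0 to 2 for the cultivars' difference in CS and in response to CS. The methods' t-test has no form for differences in response, so none was run there. The cause of these changes was not tested. Cappelli CS replicate 3 lay lowest in its group, and replicates 1 and 2 differed too, at 9597 and 5102 for 2-S1_at. With 3 arrays a group, the differences in response and those near 2-fold cannot be placed firmly on either side of the threshold.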
